A study of Rattus norvegicus with 30 samples.

Results

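The genes described here are the cyclins, kinases, inhibitor and transcription factor that bring a resting cell through G1 into DNA synthesis: Ccnd1, Ccnd2, Ccnd3, Ccne1, Ccne2, Cdk2, Cdk4, Cdk6, Cdkn1b and Myc. They were chosen by name, and 9 of the 10 were among the 18166 genes measured, each by 1 probe set; Ccnd3 was not analysed here. RNA came from the livers of 30 wildtype Wistar rats, 1 array per rat, in 5 groups of 6: no operation, a sham operation, or partial hepatectomy with removal of 30% (PH30), 70% (PH70) or 90% (PH90) of the organ. Livers were taken 24 hours after the operation, and the study asked how the size of the resection affects expression in the remnant. The age of the rats is not given in the sources used here, and each array held RNA of a whole piece of liver, so that fewer cells of a type and less RNA per cell cannot be told apart. Each rat is named by its own number.

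D-type cyclins, made in response to growth factors, activate Cdk4 and Cdk6, which begin to phosphorylate the retinoblastoma protein and so release E2F transcription factors. E2F turns on cyclin E, which with Cdk2 completes that phosphorylation and starts DNA replication, while p27, the product of Cdkn1b, binds and holds back cyclin E and Cdk2. Myc raises the growth and ribosome programme of the cell. In the liver, resection is the classic stimulus that takes quiescent hepatocytes through this sequence, and cyclin D1 is the best known mark of their passage through G1.

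Values were log2 signals that had been centred on each gene's median over the 30 arrays. A value of 0 is therefore the middle of the 30 rats for that gene, differences between rats are kept, and levels cannot be compared between genes. For the same reason the presence of liver markers could not be read from their level; 9 of 10 listed hepatocyte markers were on the array, and the mean of these was lower on every resected array (group means -0.11 in PH30, -0.12 in PH70 and -0.10 in PH90) than on every sham array (group mean 0.08). Its genes did not move as one: in PH90 against sham 2 rose, 3 fell and 4 were not called, with a median difference of 0.02. Of all genes 34.6% were called in that comparison. The part of these markers in the results was not tested. A gene is called changed where limma's adjusted p over all 18166 genes was below 0.05, and rose and fell are used of such genes alone. The study states that rats were assigned at random, and the p-values set differences between groups against the spread between rats within groups.

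Rats 95 and 139 stood apart from their groups. Over all genes, Pearson's r between PH30 rat 95 and the rest of its group averaged -0.11, against 0.18 to 0.25 for those 5 rats, and it averaged 0.50 with PH70. For PH70 rat 139 the average was -0.11 within its group, against 0.49 to 0.55 for the remaining 5, and 0.20 with sham. Both were kept as labelled, and the calls of members that change without them are given both ways. They were picked out by these same expression values, so p-values without them can be too small and are given as a description. Leaving them out also changes the spread that limma shares over all groups, so calls can change between groups that hold neither rat.

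The promoters of Cdk4, Ccne1 and Cdk2 are shown because E-boxes and E2F sites are the elements through which Myc and E2F act, and known targets of both are followed further on; whether the motifs relate to the values was not tested. The RefSeq promoter table for assembly GRCr8 held 5 of the 10 genes (Ccnd3, Ccne1, Cdk2, Cdk4 and Cdkn1b). Each window runs from 250 bases before to 50 bases after the promoter start used in that table, printed 5′ to 3′ on the gene's own strand. The first is Cdk4 (chr7:64771203-64771502, plus strand), with every CACGTG, the E-box bound by Myc and its partners, in capitals. The other 2 are Ccne1 (chr1:99927860-99928159, minus strand) and Cdk2 (chr7:1721829-1722128, minus strand), with every TCCCGC, the core of E2F sites, in capitals on either strand (GCGGGA is its reverse complement).
Cdk4: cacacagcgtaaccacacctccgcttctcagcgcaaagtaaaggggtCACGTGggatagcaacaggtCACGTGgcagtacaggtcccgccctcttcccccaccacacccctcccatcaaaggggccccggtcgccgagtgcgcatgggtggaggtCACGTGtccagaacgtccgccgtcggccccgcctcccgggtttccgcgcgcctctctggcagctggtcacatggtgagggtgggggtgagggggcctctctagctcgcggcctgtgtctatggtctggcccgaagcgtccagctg
Ccne1: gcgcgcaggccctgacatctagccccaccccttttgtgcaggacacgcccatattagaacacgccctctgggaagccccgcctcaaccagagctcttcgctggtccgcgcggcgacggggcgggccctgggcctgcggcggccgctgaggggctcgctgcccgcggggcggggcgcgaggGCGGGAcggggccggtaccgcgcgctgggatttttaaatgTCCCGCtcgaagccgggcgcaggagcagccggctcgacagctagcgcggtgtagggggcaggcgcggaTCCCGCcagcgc
Cdk2: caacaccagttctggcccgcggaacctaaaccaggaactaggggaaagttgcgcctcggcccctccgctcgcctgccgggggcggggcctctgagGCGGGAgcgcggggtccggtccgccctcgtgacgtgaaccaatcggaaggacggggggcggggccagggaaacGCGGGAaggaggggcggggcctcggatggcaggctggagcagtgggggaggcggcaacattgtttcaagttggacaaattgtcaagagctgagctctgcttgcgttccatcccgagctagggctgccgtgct

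In the Cdk4 window CACGTG occurred 3 times, starting 203, 183 and 95 bases before the start. Of 33469 rat promoters of this length, 6.42% held at least 1 CACGTG and 0.0568% held 3 or more. TCCCGC occurred 3 times in the Ccne1 window, 70 and 30 bases before and 38 bases after the promoter start. In the Cdk2 window it occurred 2 times, 155 and 82 bases before the promoter start. For both genes the promoter start lies inside the gene coordinates given below, so a match before it can lie within the gene. At least 1 TCCCGC was found in 18.7% of promoters, 2 or more in 4.42% and 3 or more in 0.926%, and the Cdk4 window also held 1, shown in lower case. The longer E2F sites TTTCCCGC and TTTGGCGC, on both strands, matched none of these 3 windows and were found in 0.974% and 0.493% of promoters. Among the other motifs searched on both strands, the CCAAT box was in the Ccnd3, Cdk2 and Cdkn1b windows (37.5% of promoters) and the GC box GGGCGG in all 5 (33.1%). These are matches of letters, and binding was not measured.

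Ccne1, Ccne2 and Cdk2 had their highest group mean in PH70, as did Ccnd2. Ccnd1, Cdk4, Cdk6 and Myc had theirs in PH90, and Cdkn1b had its lowest mean there. In PH30 no member was called against sham.

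**Figure D1:**
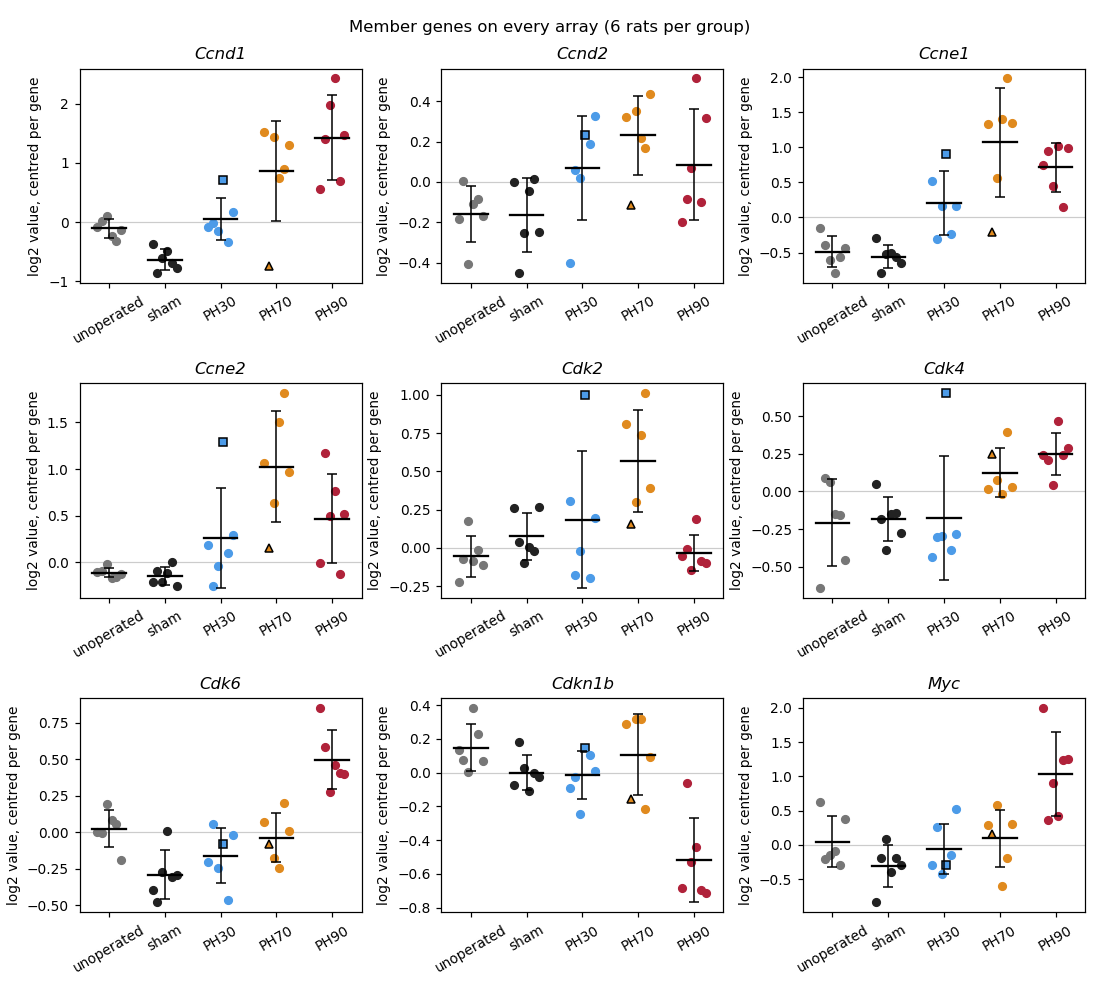
Log2 value of each of the 9 measured members on every array, centred per gene, by group; points are rats (6 per group), the horizontal line is the group mean and the bar is 1 SD. Ccne1, Ccne2 and Cdk2 have their highest mean in PH70 (1.07, 1.03 and 0.57), and Ccnd1, Cdk4, Cdk6 and Myc in PH90 (1.42, 0.25, 0.50 and 1.03), where Cdkn1b has its lowest (-0.52).

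Ccnd1 (chromosome 1, 209518288 to 209527986 in GRCr8), encoding cyclin D1, rose with both larger resections, and in PH90 by more than any other member. Its log2 values ran from -0.87 to -0.37 in the sham rats (median -0.65), from -0.33 to 0.71 in PH30 (median -0.05), from -0.75 to 1.52 in PH70 (median 1.11) and from 0.57 to 2.43 in PH90 (median 1.43). Every PH90 rat was above every sham rat, and so was every PH30 rat, while in PH70 rat 139 was within the sham range and the other 5 were above it. Against sham the log2 difference was 1.49 ± 0.29 (SE, n = 6 per group; 2.82-fold, limma adjusted p = 0.00035) in PH70 and 2.06 ± 0.29 (4.16-fold, adjusted p = 9.6e-07) in PH90. In PH30 it was 0.69 ± 0.29 and did not pass (adjusted p = 0.17). PH90 and PH70 were not told apart by Ccnd1, with a difference of 0.56 (95% interval -0.03 to 1.15, adjusted p = 0.18), which was 0.24 without rats 95 and 139 (adjusted p = 0.52).

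The value of Ccnd1 also depended on the control. The unoperated rats ran from -0.32 to 0.10 (median -0.11), and all 6 lay above all 6 sham rats. The sham rats were 0.52 ± 0.29 lower on the log2 scale, which did not pass in the fit over all groups (adjusted p = 0.53), and passed when only these groups were fitted (adjusted p = 0.0031). Against unoperated rats the rise of Ccnd1 was 0.97 in PH70 (1.96-fold, adjusted p = 0.016) and 1.53 in PH90 (2.89-fold, adjusted p = 7.5e-05), and the PH30 difference was 0.16 (adjusted p = 0.79). The PH70 call against unoperated rats was lost without rat 37 (adjusted p = 0.05) or rat 136 (adjusted p = 0.053), and after quantile normalization of the deposited arrays (0.68, adjusted p = 0.099). The unoperated rats carry the highest numbers of the series, so the order of the rats and the lack of an operation cannot be told apart.

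Ccnd2 (chromosome 4, 161653048 to 161675422), encoding cyclin D2, moved little. Its group medians were -0.15 in sham, 0.12 in PH30, 0.27 in PH70 and -0.01 in PH90, and all groups overlapped with sham. It rose in PH70 by 0.39 ± 0.12 (1.31-fold, adjusted p = 0.018), with all 6 rats above the sham mean, and this call was lost without PH70 rat 97 (adjusted p = 0.053) or sham rat 114 (adjusted p = 0.058). In PH90 the difference was 0.25 (95% interval 0.01 to 0.50, adjusted p = 0.11), and Ccnd2 was the one member with no call for any difference between the resections (adjusted p = 0.52).

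Of the kinases that D cyclins activate, Cdk6 differed between PH90 and both other resections, and Cdk4 passed between PH90 and PH30 but not between PH90 and PH70. Cdk6 (chromosome 4, 31592384 to 31784732) ran from -0.48 to 0.01 in sham (median -0.30), from -0.47 to 0.06 in PH30 (median -0.14), from -0.24 to 0.20 in PH70 (median -0.04) and from 0.27 to 0.86 in PH90 (median 0.43). All 6 PH90 rats were above every rat of the other resections, above every sham rat and above every unoperated rat (-0.19 to 0.20), whereas PH30 and PH70 overlapped with sham. Cdk6 rose in PH90 by 0.79 ± 0.10 against sham (1.72-fold, adjusted p = 9.9e-08), by 0.66 against PH30 (adjusted p = 2.8e-06) and by 0.53 against PH70 (adjusted p = 9.1e-05). The PH70 difference from sham was 0.25 (adjusted p = 0.066) and passed without PH70 rat 58 (adjusted p = 0.04) or sham rat 143 (adjusted p = 0.022).

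Cdk4 (chromosome 7, 64771453 to 64774891) moved less. Its values ran from -0.39 to 0.05 in sham (median -0.17), from -0.01 to 0.39 in PH70 (median 0.05) and from 0.04 to 0.47 in PH90 (median 0.24). PH90 and sham met at the edge, where the lowest PH90 rat and the highest sham rat were both near 0.05. Cdk4 rose by 0.43 ± 0.14 in PH90 (1.35-fold, adjusted p = 0.015), and the PH70 difference of 0.31 ± 0.14 did not pass (adjusted p = 0.13), though it was 0.28 and just passed without rats 95 and 139 (adjusted p = 0.05 after rounding). Against unoperated rats the PH70 difference was 0.33 (adjusted p = 0.1), and 0.31 without those rats (adjusted p = 0.033). PH90 and PH70 were not told apart by Cdk4, with a difference of 0.12 (95% interval -0.16 to 0.41, adjusted p = 0.63). In PH30, rats other than 95 lay between -0.43 and -0.28 while rat 95 was at 0.65, the highest Cdk4 value of the 30. Cdk4 was 0.42 higher in PH90 than in PH30 (adjusted p = 0.019), 0.59 without rats 95 and 139 (adjusted p = 4.4e-05), and that call was lost without PH30 rat 130 (0.37, adjusted p = 0.052).

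The E cyclins rose most in PH70. Ccne1 (chromosome 1, 99918672 to 99927986), encoding cyclin E1, ran from -0.80 to -0.29 in sham (median -0.55), from -0.31 to 0.90 in PH30 (median 0.17), from -0.21 to 1.98 in PH70 (median 1.34) and from 0.15 to 1.01 in PH90 (median 0.84). All rats of PH70 and PH90 were above all sham rats, and PH30 overlapped with sham through its lowest rat, 140. Against sham Ccne1 rose by 1.63 ± 0.24 in PH70 (3.09-fold, adjusted p = 2.3e-05) and by 1.27 ± 0.24 in PH90 (2.42-fold, adjusted p = 8.6e-05). Its PH30 difference was 0.76 ± 0.24 and just missed the threshold (adjusted p = 0.06). That one passed without rat 140 (0.86, adjusted p = 0.042) and without rats 95 and 139 (0.62, adjusted p = 0.027). With every rat of PH30 and sham kept, it passed when only these groups were fitted (limma adjusted p = 0.017). It also passed with array weights (0.67, adjusted p = 0.032) and after quantile normalization (0.93, adjusted p = 0.0071). Leaving out both rats also brought Ccne1 past the threshold for PH30 against unoperated rats (0.69, adjusted p = 0.068 with them and 0.55, adjusted p = 0.041 without) and for PH90 against PH30 (0.51, adjusted p = 0.11 with them and 0.65, adjusted p = 0.0058 without).

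Ccne2 (chromosome 5, 29082169 to 29094879), encoding cyclin E2, had group medians of -0.16 in sham, 0.14 in PH30, 1.02 in PH70 and 0.51 in PH90. The PH70 rats, from 0.16 to 1.82, were all above the highest sham rat at 0.01, whereas 2 of the PH90 rats, 61 at -0.12 and 106 at -0.01, were within the sham range. Ccne2 rose by 1.17 ± 0.23 in PH70 (2.25-fold, adjusted p = 0.0004) and by 0.61 ± 0.23 in PH90 (1.53-fold, adjusted p = 0.036). The PH90 call was lost in 8 of the 12 fits that each left out 1 rat of PH90 or sham (adjusted p up to 0.12), and against unoperated rats the difference of 0.58 lay at the threshold. It missed in the fit of all groups (adjusted p = 0.05 after rounding) and passed without rats 95 and 139 (adjusted p = 0.0071), without PH90 rat 61 (adjusted p = 0.02) or 106 (adjusted p = 0.027), and under 4 other settings (adjusted p = 0.0072 to 0.048). Rats 95 and 139 are in neither of these groups, and the difference stayed at 0.58 without them.

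Cdk2 (chromosome 7, 1714392 to 1721964), the kinase that cyclin E activates, rose in PH70 but not in PH90. It ran from -0.10 to 0.27 in sham (median 0.02), from 0.16 to 1.01 in PH70 (median 0.57) and from -0.15 to 0.19 in PH90 (median -0.07). The PH70 rats overlapped with sham through rat 139 alone, and PH90 lay within or just below the sham range. Against sham the difference was 0.49 ± 0.15 in PH70 (1.41-fold, adjusted p = 0.018) and -0.11 in PH90 (95% interval -0.41 to 0.19, adjusted p = 0.64). The PH70 call was lost without rat 59, the highest of that group (0.40, adjusted p = 0.062), and was 0.57 (adjusted p = 0.0002) without rats 95 and 139. PH90 was 0.60 ± 0.15 below PH70 (1.52-fold, adjusted p = 0.0026).

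Cdkn1b (chromosome 4, 169491273 to 169496500), which encodes the inhibitor p27, fell in PH90 and in no other resection. Its values ran from -0.11 to 0.18 in sham (median -0.01), from -0.21 to 0.32 in PH70 (median 0.19) and from -0.72 to -0.06 in PH90 (median -0.60). Of the PH90 rats, 5 lay below every rat of the other groups, and rat 111 at -0.06 lay within the sham range. Against sham it fell by 0.52 ± 0.10 (1.43-fold, adjusted p = 0.00015), against PH70 by 0.63 (adjusted p = 2.6e-05) and against unoperated rats by 0.67 (adjusted p = 4.5e-06). The differences from sham were -0.02 in PH30 (adjusted p = 0.96) and 0.11 in PH70 (95% interval -0.10 to 0.32, adjusted p = 0.57).

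Myc (chromosome 7, 95483105 to 95488031) rose in PH90. Its values ran from -0.84 to 0.08 in sham (median -0.25), from -0.42 to 0.52 in PH30 (median -0.22), from -0.60 to 0.58 in PH70 (median 0.23) and from 0.37 to 2.01 in PH90 (median 1.07). All PH90 rats were above all sham rats, and 4 of them were above every rat of the other groups; PH30 and PH70 overlapped with sham. The rise in PH90 was 1.33 ± 0.23 against sham (2.52-fold, adjusted p = 2.7e-05) and 0.94 ± 0.23 against PH70 (1.91-fold, adjusted p = 0.0029). In PH70 the difference from sham was 0.40 ± 0.23 (adjusted p = 0.28). After quantile normalization of the deposited arrays the PH90 difference from PH70 was 0.62 and did not pass (adjusted p = 0.085). The same scaling left 0.62 against unoperated rats (adjusted p = 0.051), where the fit as deposited gave 0.98 (adjusted p = 0.0011). Quantile normalization gives every array the same spread, and the PH90 arrays had the widest. The part of this in the smaller PH90 differences was not tested.

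Counted together, the members can be read against the share of all genes called in each comparison. That share, the background, is of genes with an adjusted p below 0.05, so counts at an unadjusted p have no share beside them. Between sham and unoperated rats, 0 of 9 were called by limma, against 0.738% of all genes. At an unadjusted p below 0.05 there was 1 member (Cdk6, 0.31 lower in sham). When only those groups were fitted, 2 members and 721 of the 18166 genes were called. In PH30 against sham 0 of 9 were called (background 5.53%), with 2 (Ccnd1 and Ccne1) at an unadjusted p below 0.05. When only those groups were fitted, 2 members and 1286 of all genes were called. In PH70 against sham 5 of 9 rose and none fell (background 18.6%), and in PH90 against sham 6 rose and 1 fell (background 34.6%). The comparisons with sham share the 6 sham rats. Against unoperated rats the counts were 0 in PH30 (background 9.85%, 1 at an unadjusted p below 0.05), 5 in PH70 (18.5%) and 6 in PH90 (33.8%). The median difference of the 9 members from sham was 0.24 in PH30, 0.40 in PH70 and 0.62 in PH90, beside medians of 0.01, -0.01 and -0.00 over all genes.

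**Figure D2:**
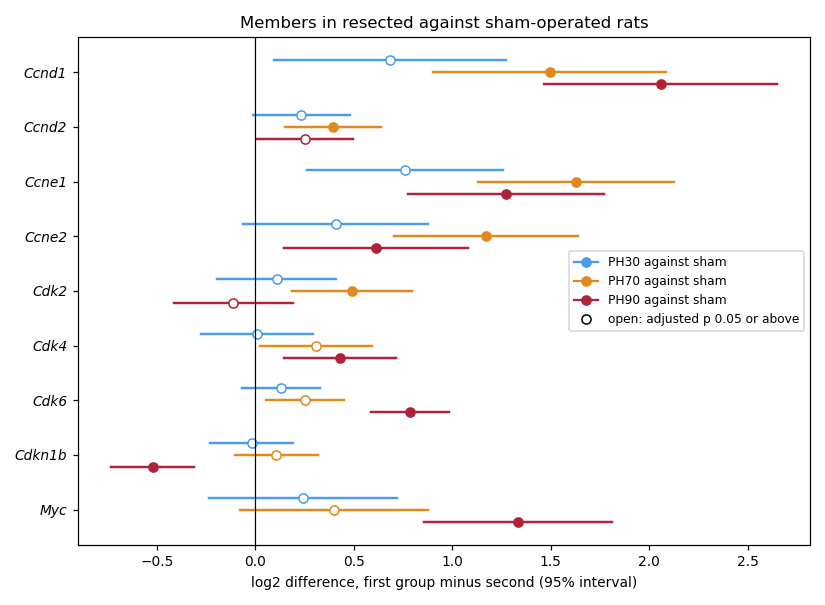
Log2 difference of each member from the sham rats in PH30, PH70 and PH90, with limma's 95% interval (n = 6 rats per group); values above 0 are higher after resection. Ccnd1 and Ccne1 are the furthest to the right in PH70 (1.49 and 1.63), Ccnd1 and Myc in PH90 (2.06 and 1.33), and Cdkn1b lies to the left of 0 in PH90 (-0.52).

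Between resections the members split by direction. From PH70 to PH90, Cdk6 and Myc were higher by 0.53 and 0.94, while Cdk2 and Cdkn1b were lower by 0.60 and 0.63, so that 4 of 9 were called (background 24.5%). Ccne1 and Ccne2 were 0.35 and 0.56 lower in PH90, which did not pass (adjusted p = 0.35 and 0.078). Without rats 95 and 139 they were 0.61 and 0.73 lower and passed (adjusted p = 0.013 and 0.0022). From PH30 to PH90, Ccnd1, Cdk4, Cdk6 and Myc were higher and Cdkn1b lower, 5 of 9 (background 31.5%). From PH30 to PH70, 0 of 9 were called by limma (background 2.27%), and 5 had an unadjusted p below 0.05. The count of 0 rests on rats 95 and 139. Rat 95 was nearer to PH70 than to its own group, and rat 139 nearer to sham, so leaving them out tends to widen this step. Without them Ccnd1 was 1.26 higher in PH70 (limma adjusted p = 0.00021), Ccne1 1.26 (adjusted p = 2.1e-05) and Ccne2 1.14 (adjusted p = 5.1e-05). Cdk2 was 0.63 higher (adjusted p = 0.00025) and Cdk4 0.44 (adjusted p = 0.006). The count over all genes moved as well, from 413 to 2420 of 18166. Leaving out rat 95 alone also gave all 5 of these calls, and leaving out rat 139 alone gave those of Ccnd1, Ccne1 and Ccne2. Limma's F test over the 3 resections called 8 of 9 members, all but Ccnd2 (background 32.4%).

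**Figure D3:**
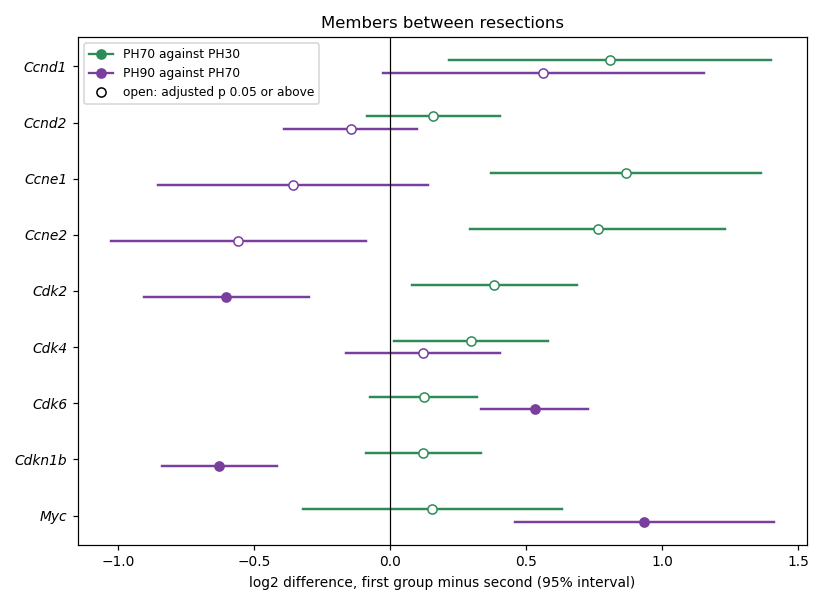
Log2 difference of each member between pairs of resections, with limma's 95% interval (n = 6 rats per group); values above 0 are higher in the larger resection. From PH70 to PH90 Cdk6 and Myc lie above 0 (0.53 and 0.94) and Cdk2 and Cdkn1b below it (-0.60 and -0.63).

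Markers of proliferating cells were highest in PH70, as were the E cyclins and Cdk2. Mki67, a protein of dividing cells, had medians of -1.50 in sham, 0.46 in PH30, 2.62 in PH70 and -0.37 in PH90. It rose by 3.67 ± 0.52 in PH70 against sham (12.7-fold, adjusted p = 1.3e-05), and PH90 was 2.65 below PH70 (adjusted p = 0.00024) and 1.02 above sham (adjusted p = 0.14). Ccna2, the S phase cyclin, rose by 3.07 in PH70 (adjusted p = 1.7e-05) and was 0.97 above sham in PH90 (adjusted p = 0.097). Rats 95 and 139 are in neither PH90 nor sham, and without them these differences stayed at 1.02 and 0.97. Only the spread shared by all groups and the adjustment changed, and both then passed (limma adjusted p = 0.022 and 0.0016). The direction of the PH90 difference depended on the control. Against unoperated rats PH90 differed by -0.55 for Mki67 (adjusted p = 0.49) and by -0.34 for Ccna2 (adjusted p = 0.66). The sham rats lay below all unoperated rats for both genes, by 1.57 and 1.31 on the log2 scale (limma adjusted p = 0.18 and 0.2). Without rats 95 and 139 these differences were the same, and the adjusted p was 0.015 and 0.0027. PH70 was above unoperated rats for both, by 2.10 (adjusted p = 0.0041) and 1.76 (adjusted p = 0.0051).

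The rats that stood apart were the extremes of their groups for most members, and not for Myc. PH30 rat 95 had the highest Mki67 of all 30 rats (3.10) and the highest values of its group for Ccnd1 (0.71), Ccne1 (0.90), Ccne2 (1.29), Cdk2 (1.0) and Cdk4 (0.65), but its Myc (-0.29) was among the lower values of its group. PH70 rat 139 had the lowest Mki67 of its group (-0.26) and the lowest Ccnd1 (-0.75), Ccne1 (-0.21), Ccne2 (0.16) and Cdk2 (0.16), while its Myc (0.16) was in the middle. Within PH90, rat 106 had the highest Myc (2.01) and the highest Cdk6 (0.86) with the lowest Ccnd1 (0.57), and its Mki67 was -1.46. Rat 43 of the same group had the highest Ccnd1 (2.43) and Mki67 (0.78) with a Myc of 0.42, near the bottom of that group.

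**Figure D4:**
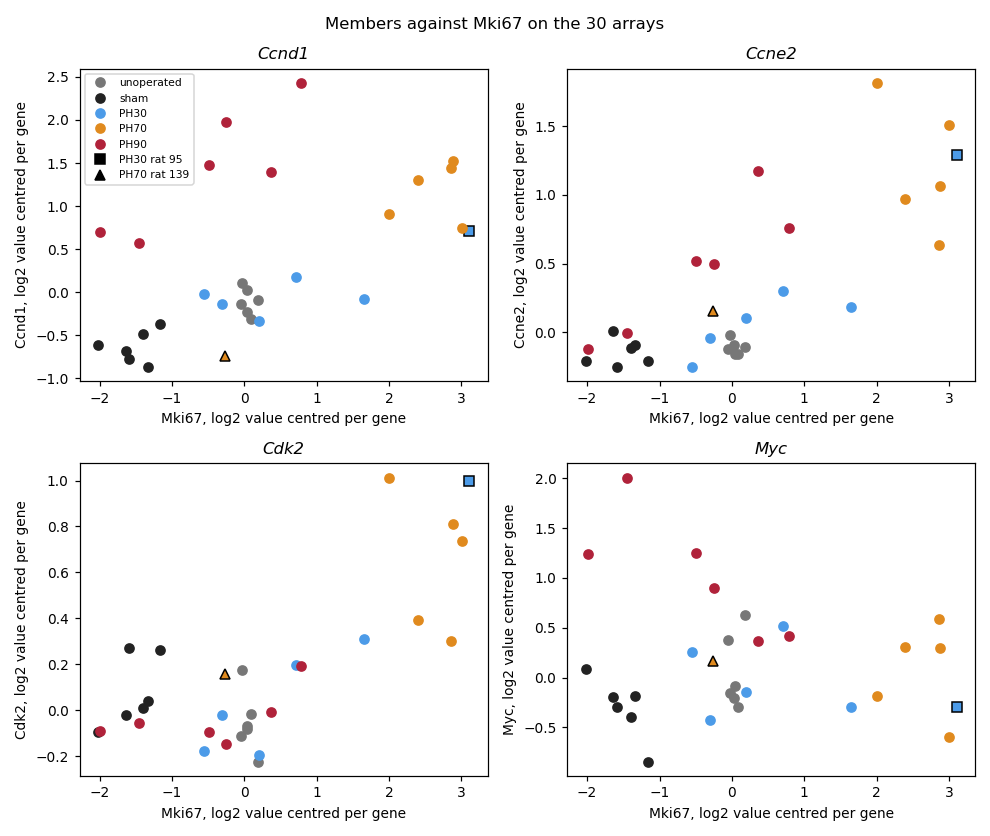
Log2 value of Ccnd1, Ccne2, Cdk2 and Myc against that of Mki67 on the 30 arrays, each centred per gene; colours are groups, the square is PH30 rat 95 and the triangle PH70 rat 139. Rat 95 (Mki67 3.10) lies among the PH70 rats for Ccne2 and Cdk2 and just below 5 of them for Ccnd1 (0.71), and the PH90 rats have high Ccnd1 (0.57 to 2.43) and Myc (0.37 to 2.01) at Mki67 values between -1.99 and 0.78.

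With each group's mean removed, Pearson's r over the 30 arrays was 0.80 between Ccne1 and Ccne2, 0.76 between Ccne2 and Cdk2 and 0.72 between Ccne1 and Cdk2, so these 3 varied together among rats of a group. Between Cdk6 and Myc it was 0.23, between Cdk6 and Cdkn1b -0.19 and between Myc and Cdkn1b -0.22: the members that parted PH90 from the rest varied together little inside groups. With Mki67 the same measure was 0.79 for Ccnd1, 0.78 for Ccne2, 0.69 for Ccne1, 0.68 for Cdk2, 0.57 for Cdkn1b, 0.39 for Ccnd2 and 0.31 for Cdk4, and -0.07 for Cdk6 and -0.38 for Myc. These coefficients are descriptions; rats 95 and 139 enter all of them, and the genes of an array share its RNA.

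Over all 30 arrays, where differences between the groups enter too, the named genes most like each member by Pearson's r were as follows. Ccne2 was closest to Pcna (0.95), Mcm4 (0.94) and Mcm5 (0.93), parts of the replication machinery. Ccne1 was closest to Rpa2 (0.95), which binds single-stranded DNA, the DNA methyltransferase Dnmt1 (0.94) and the flap endonuclease Fen1 (0.93). Cdk2 was closest to Fancb (0.90), Fbxo5 (0.88) and Atad2 (0.87). For Ccnd1 the nearest genes were Thyn1 (0.93), Mif (0.92) and Pip4p2 (0.92), and for Ccnd2 they were Tedc2 (0.78), Csf1 (0.77) and Cdca7 (0.76). Cdk4 was closest to Srm, spermidine synthase (0.88), then Nutf2 (0.85) and Alg12 (0.84). Cdk6 was closest to the RNA methyltransferase Nsun2 (0.89), Hspa9 (0.87) and Xab2 (0.87). Myc was closest to Ccr1 (0.88), Lamc1 (0.86) and Dusp16 (0.86). Cdkn1b was closest to Acaca, the acetyl-CoA carboxylase of fatty acid synthesis (0.87), Ephx1 (0.87) and Hsd17b13 (0.86), which differed from sham in PH90 by -0.77, -1.05 and -1.94.

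The pathway around the members was read from 7 lists. Upstream of the kinases, 3 of 6 other CDK inhibitors rose in PH70 and 1 in PH90, and none was called in PH30, beside 18.6%, 34.6% and 5.53% of all genes called in either direction. The same shares stand beside the counts of the other lists. For counts from PH70 to PH90 the share is 24.5%. Without rats 95 and 139, of 18166 genes 1984 were called in PH30, 4301 in PH70 and 6623 in PH90 against sham, and 4680 from PH70 to PH90. Cdkn1a, encoding p21, rose in both larger resections (1.23 in PH70, 1.67 in PH90). Cdkn3 and Cdkn2c rose in PH70 (2.27 and 1.47). From PH70 to PH90 they were 2.08 and 1.48 lower (limma adjusted p = 0.00019 and 0.00057). For Cdkn3 the sham rats were 1.44 below unoperated rats (adjusted p = 0.092). Against unoperated rats 2 of the 6 rose in PH70, Cdkn2c and Cdkn1a, beside 18.5% of all genes called. In PH90 against unoperated rats Cdkn1a rose by 1.55 and Cdkn3 fell by 1.25 (adjusted p = 0.015), beside 33.8%. Of 16 regulators of CDK activation and of cyclin or p27 turnover, 8 rose and 1 fell against sham in PH70, as in PH90. Wee1, a kinase that inhibits CDKs, rose the most of them in PH70 (1.30) and rose by 0.82 in PH90. Skp2, which targets p27 for destruction, rose by 0.72 in PH70, and Cdc25a, a phosphatase that activates Cdk2, rose by 0.63 in PH90. Cdc25a was also higher in PH70 than in PH30, by 0.37 (limma adjusted p = 0.02), so its higher values were not confined to PH90. The differences from sham of Skp2 in PH90 and of Cdc25a in PH70 are not given here. The values given therefore do not assign either gene to a single resection.

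Among 12 pocket proteins, E2F and DP factors, 7 rose and 1 fell in PH70, and 6 rose and 3 fell in PH90. In PH70 the pocket protein Rbl1 rose by 1.58, E2f7 by 1.39, E2f8 by 1.14 and E2f1 by 1.01. In PH90 Rbl2, the pocket protein of resting cells, fell by 1.24 and E2f4, its usual partner, rose by 1.02, and the activator E2f1 was 0.66 lower than in PH70 (adjusted p = 0.0032). Rbl2 also fell in PH30, by 0.45. From PH70 to PH90 Rbl2 was 0.62 lower (limma adjusted p = 2.9e-05) and E2f4 0.63 higher (adjusted p = 1.2e-05). These steps were smaller than the differences from sham, so for both genes the PH70 mean lay between sham and PH90.

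Downstream, E2F targets had their highest median in PH70 and MYC targets in PH90. Of 15 E2F targets of S phase entry, 7 rose in PH30, 15 in PH70 and 12 in PH90, with median differences of 0.68, 1.55 and 0.82. Without rats 95 and 139 the counts were 10, 15 and 14, and the PH30 median was 0.38. From PH70 to PH90, 9 of the 15 were lower and none higher, and 13 were lower without rats 95 and 139. Rrm2, the ribonucleotide reductase subunit of dividing cells, rose by 2.69, 4.67 and 1.51 in PH30, PH70 and PH90, and Mcm6 of the replicative helicase by 1.44, 2.56 and 1.46. For Rrm2 the sham rats were 1.55 below unoperated rats (limma adjusted p = 0.27), close to its PH90 rise, whereas Mcm6 in PH90 was 1.30 above unoperated rats. Against unoperated rats 6, 15 and 11 of the 15 E2F targets rose, beside 9.85%, 18.5% and 33.8% of all genes called. Of 17 known MYC targets, 1 rose in PH30, 12 in PH70 and 16 in PH90, with medians of 0.05, 0.50 and 1.02, and from PH70 to PH90 13 of 17 were higher and none lower. Odc1, the first enzyme of polyamine synthesis, rose by 0.82 in PH70 and 1.77 in PH90, and the nucleolar proteins Nop58 and Ncl rose by 1.62 and 1.21 in PH90. Over all genes the medians in PH30, PH70 and PH90 were 0.01, -0.01 and -0.00.

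Of 8 later cyclins and their kinase, 1 rose in PH30 (Ccna2, 1.77), 5 in PH70 and none in PH90. Against unoperated rats the PH30 difference of Ccna2 was 0.46 (limma adjusted p = 0.58). Leaving out rats 95 and 139 gave 4, 5 and 2. In PH70 Ccnb1 rose by 2.73, Cdk1 by 2.50 and Ccnb2 by 2.02, and from PH70 to PH90 5 of the 8 were lower and 1 higher. In the network of MYC's partners and antagonists, with 11 genes measured, 1 rose and 1 fell in PH30, 1 rose and 2 fell in PH70, and 1 rose and 1 fell in PH90. The antagonist Mxd4 fell in both larger resections, by 0.62 and 0.79.

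**Figure D5:**
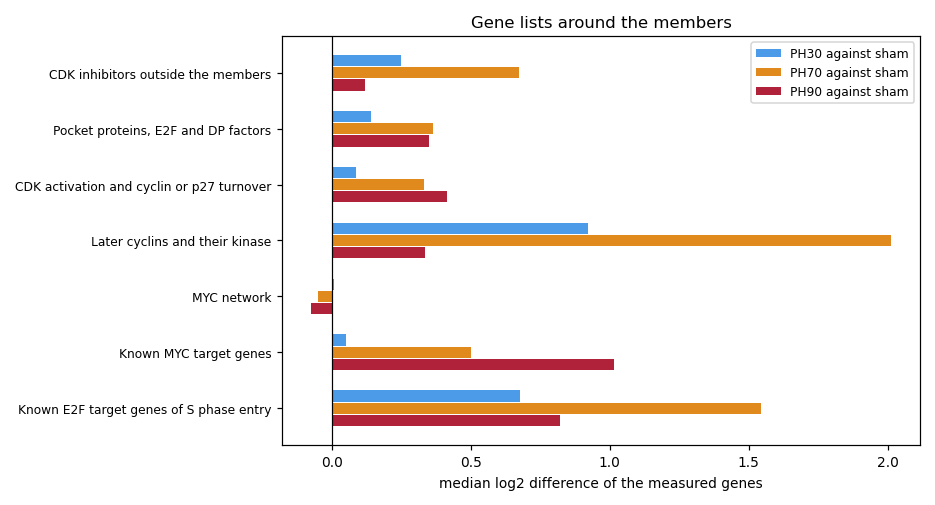
Median log2 difference from sham of the measured genes in 7 lists around the members, for PH30, PH70 and PH90 (bars from 0; no error is drawn, since genes of a list are not replicates). The medians of E2F targets and later cyclins are highest in PH70 (1.55 and 2.01), and that of MYC targets in PH90 (1.02).

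Markers of other cell types moved with the same groups, and their part in the results was not tested. Beside these counts stand the shares of all genes called against sham, 18.6% in PH70 and 34.6% in PH90. In PH90 7 of 13 T and NK cell markers fell against sham, and their mean per array was -0.26 to -0.15, below the sham range of 0.07 to 0.17. Of 14 macrophage markers 7 fell and 1 rose in PH90 (mean per array -0.58 to 0.02, against -0.04 to 0.21 in sham). The mean of 7 cholangiocyte markers was -0.01 to 0.44 in PH90, highest in rat 106, and -0.10 to 0.12 in sham. Of these markers 1 rose, 1 fell and 5 were not called in PH90 against sham, with a median difference of 0.06. Of 9 neutrophil markers 3 rose in PH70 and 3 in PH90, which became 1 and 4 without rats 95 and 139, and their mean was highest in PH70 rat 139 (0.62). In PH90 against sham 3 of 7 B cell markers fell, 1 of 7 endothelial markers rose and 2 fell, 2 of 10 stellate cell and fibroblast markers rose and 3 fell, and 0 of 3 red cell markers were called. The arrays of PH90 also had a wider spread of values over genes, with an SD of 0.36 to 0.55 per array against at most 0.31 in the other groups.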

How the data were processed

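Liver RNA was hybridised to Affymetrix Rat Gene 2.0 ST arrays. Per the submitters' processing notes the authors made log2 values with RMA in Affymetrix Expression Console, with versions not stated there. The deposited log2 values (-6.04 to 5.44, 29489 probe sets) have a median of 0 within 5e-07 for every probe set over the 30 arrays, so levels are lost. Probe sets were named from the platform annotation: 18511 had 1 symbol, 575 several and 10403 none. Genes with several probe sets (291) took their mean. limma 3.58.1 in R 4.3.3 was fitted to all 30 arrays and 18166 genes with 1 mean per group (25 residual and 3.71 prior degrees of freedom), two-sided, with Benjamini-Hochberg adjustment over all genes of each comparison and calls below 0.05. Errors are limma's standard errors. The number of arrays limits the precision. The fit was tested on simulated data.

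Group and rat number came from the labels. The members and gene lists were chosen with earlier results of these data known. Named genes were all members, the 3 genes most correlated with each, up to 4 called genes of each list per comparison, Mki67 and Ccna2; the text gives part of these. Alternatives were fits of the compared groups only, array weights, leaving out rats 95 and 139, a robust prior, quantile normalization, centring of arrays, the most variable probe set, all probe sets one by one, and leaving out each rat. Promoters are RefSeq's (GRCr8).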

Additional observations from a re-analysis of the deposited data

Results flagged for a closer look

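In 3 of the 45 sets of 6 values (9 members in 5 groups), 1 rat lay further from its group than Dixon's criterion allows at 95%, and chance alone gives about 1 in 20. Ccnd1 was -0.75 in PH70 rat 139, where the next lowest rat of the group was at 0.74 (gap 0.656 of the range). Ccne2 was 1.29 in PH30 rat 95, with the next highest at 0.30 (gap 0.644). Cdk4 was 0.65 in PH30 rat 95, with the next highest at -0.28 (gap 0.860).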

How the results depend on the processing

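No member's called difference reversed under any alternative run. Counts of members called moved by over 1.5 times only in the comparisons below. Where only the compared groups were fitted, the counts became 2 for sham against unoperated, 2 for PH30 against sham, 1 for PH30 against unoperated and 5 for any difference between resections (from 0, 0, 0 and 8). With array weights they became 1, 1 and 1 for those first 3 and 5 for PH70 against PH30 (from 0). Without rats 95 and 139 they became 1 for PH30 against sham, 1 for PH30 against unoperated and 5 for PH70 against PH30. With quantile normalization they became 1 for sham against unoperated, 2 for PH30 against sham, 1 for PH70 against PH30 and 1 for PH30 against unoperated, and centring of arrays gave 1 for PH70 against PH30. Leaving out 1 rat at a time gave 0 to 1 for PH30 against sham and against unoperated, 0 to 5 for PH70 against PH30 and 5 to 8 for any difference; the 5 came without PH30 rat 140. The cause was not tested. Of 90 results of single members, array weights moved 16 past the threshold and none below it; quantile normalization moved 7 past and 3 below.

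Counts over all genes moved too. The fit of all groups called 134 of 18166 genes for sham against unoperated and 1005 for PH30 against sham. It called 1789 for PH30 against unoperated and 413 for PH70 against PH30. Array weights gave 539, 1938, 2860 and 2178 for these, and quantile normalization 419, 1901, 2606 and 821. Fits of only the compared groups gave 1919 for PH30 against unoperated and 5011 for any difference (from 5882). Without rats 95 and 139 there were 2665 for PH30 against unoperated. For PH70 against PH30 (413 genes) they ran from 2 when only those groups were fitted to 2420 without rats 95 and 139, and from 18 (without PH30 rat 98) to 1911 (without PH30 rat 95) when 1 rat was left out. For sham against unoperated (134) they reached 721 when only those groups were fitted, for PH30 against sham (1005) 1984 without rats 95 and 139, and for PH90 against PH70 (4454) they were 2374 after quantile normalization. That scaling evens out the wider spread of the PH90 arrays, and the part of this in the smaller count was not tested. No paired analysis was possible because no number is shared by rats of different groups. A filter on low values could not be applied to centred values, and signal over background is not known.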
